A study of Mus musculus with 6 samples.

Results

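FOXM1 and the genes of mitosis were examined in the cochlea of mouse embryos that had or lacked Igf1, the gene of insulin-like growth factor 1. The members were 34 named genes, Foxm1 and 33 mitotic genes, chosen by name with earlier results of these data known. Of the 34, 32 had a probe set annotated to that gene alone, out of 12393 such genes on the array, and each was read at the brightest of its probe sets over the 6 arrays. Ccnb1 and Cdca8 were matched to no probe set here and have no value below. Samples were cochleae with the otic capsule and without vestibular tissue, taken at embryonic day 18.5 from C57BL/6J embryos of matings between heterozygotes. The 3 wild type pools carried Igf1 +/+, the 3 null pools Igf1 -/-, and RNA from 4 cochleae made 1 pool and 1 single-colour Affymetrix array. Pooling hides differences between embryos, whether pools shared a litter was not given, and cochlear, capsular and blood cells share each pool, so fewer cycling cells and less mitotic RNA per cell cannot be told apart. A label field of the 3 null samples carries the wild type sign, and the groups here follow the titles and descriptions. The same field gives 1 wild type pool a slightly different age.

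FOXM1 is a forkhead transcription factor made by cycling cells that binds, together with the MuvB complex and B-MYB, at promoters of genes switched on in G2. Its targets include the cyclins that activate CDK1, the Polo and Aurora kinases, spindle motors and the ligase cofactors that end mitosis. Many of these promoters carry a cell cycle homology region (CHR), bound by MuvB, and CCAAT boxes, bound by NF-Y. At this embryonic age the sensory epithelium of the cochlea has left the cycle, while capsule cartilage, mesenchyme, endothelium and blood cells can still divide. Mitotic transcripts in such a pool therefore come from a mixture of cells.

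As a check of the labels, all null arrays lay below all wild type arrays at the 3 probe sets of Igf1, with differences of -0.547, -0.455 and -0.995 on the log2 scale and limma adjusted p of 0.889, 0.887 and 0.60. Where these probes lie relative to the deleted part was not read here. Array medians of the deposited log2 values ran from 5.61 to 6.36 and were lowest in null pool 1, so the arrays were quantile normalized before any comparison. All levels below are log2 signals on that scale, and differences are null minus wild type. Of 12 fixed markers of cochlear epithelium, 11 lay above background, among them Tecta, Coch, Epyc and Myo7a, and Fgf10 did not. Background was taken as 3.38, the 95th percentile of the mean level of 33 olfactory receptor probe sets. Of the 32 members 31 lay above it. Cdc25c, the phosphatase that activates CDK1, did not, with a mean of 2.49. The 3 Igf1 probe sets also lay above background in the null pools. Their means there were 6.927, 10.593 and 7.059, against 7.475, 11.048 and 8.054 in wild type. The check of the labels therefore shows a lower Igf1 signal and not its absence.

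The promoters of the mitotic genes are shown beside signals that tended to move together across pools, with no link between the motifs and the signals tested. RefSeq (GRCm38.p6) gave promoter windows, from 250 bases before to 50 after a start, for 26 of the 32 measured members, with Foxm1, Ccna2, Aurkb, Tpx2, Kif20a and Cdc25c not among them. The CHR core TTTGAA, searched on both strands, stood in a window of 20 of these 26 genes (76.9%), against 20.2% of all 27025 genes in the table and 15.4% of the 9883 genes with a single-gene probe set. A CCAAT box, CCAAT on either strand, stood in 23 of 26 (88.5%), against 41.1% of all genes. The motifs were searched separately and can share an end base. Both stood in the same window for 20 of 26 genes (76.9%), against 7.97%. Over the 30 windows of the 28 listed genes in the table, the 29 TTTGAA matches had a median distance of 2 bases after the start and the 67 CCAAT matches 67 bases before it (median -67). A match is only a description of the letters in the window. Capitals mark TTTGAA and CCAAT, or CCAAT read on the opposite strand as ATTGG. Shown first are Cdca3, Cdk1, Ect2 and Mki67, the members most like the others across pools among those whose window holds both motifs. Bub1, Nusap1, Plk4 and Cks2, each also more like the others than Cdk1, lack TTTGAA, and Nusap1 and Plk4 lack CCAAT too. The window of Birc5, the member most like the others across pools, holds neither motif and is shown last:
Cdca3, chr6:124829926-124830225, plus strand: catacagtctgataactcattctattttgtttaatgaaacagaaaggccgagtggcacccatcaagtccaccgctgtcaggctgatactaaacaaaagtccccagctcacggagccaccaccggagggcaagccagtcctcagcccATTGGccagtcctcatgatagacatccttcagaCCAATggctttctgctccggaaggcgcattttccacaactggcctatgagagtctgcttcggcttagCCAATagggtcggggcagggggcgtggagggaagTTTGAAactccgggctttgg
Cdk1, chr10:69352863-69353162, minus strand: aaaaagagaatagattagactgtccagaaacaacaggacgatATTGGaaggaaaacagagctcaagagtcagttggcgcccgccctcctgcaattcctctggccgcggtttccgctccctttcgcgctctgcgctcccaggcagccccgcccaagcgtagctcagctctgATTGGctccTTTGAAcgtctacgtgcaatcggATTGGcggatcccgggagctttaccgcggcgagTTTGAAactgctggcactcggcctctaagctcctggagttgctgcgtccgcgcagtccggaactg
Ect2, chr3:27153805-27154104, minus strand: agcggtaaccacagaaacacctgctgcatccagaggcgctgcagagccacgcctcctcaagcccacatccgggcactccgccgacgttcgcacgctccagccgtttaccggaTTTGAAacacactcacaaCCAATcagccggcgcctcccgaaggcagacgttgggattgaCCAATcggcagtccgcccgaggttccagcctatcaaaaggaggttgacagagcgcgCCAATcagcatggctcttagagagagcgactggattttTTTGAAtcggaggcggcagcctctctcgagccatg
Mki67, chr7:135716330-135716629, minus strand: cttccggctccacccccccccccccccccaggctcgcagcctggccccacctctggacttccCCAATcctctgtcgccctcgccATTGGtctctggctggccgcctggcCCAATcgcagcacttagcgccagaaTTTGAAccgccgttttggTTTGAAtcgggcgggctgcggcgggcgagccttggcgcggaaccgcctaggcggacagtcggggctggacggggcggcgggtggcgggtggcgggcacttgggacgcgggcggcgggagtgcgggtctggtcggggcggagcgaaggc
Birc5, chr11:117848987-117849286, plus strand: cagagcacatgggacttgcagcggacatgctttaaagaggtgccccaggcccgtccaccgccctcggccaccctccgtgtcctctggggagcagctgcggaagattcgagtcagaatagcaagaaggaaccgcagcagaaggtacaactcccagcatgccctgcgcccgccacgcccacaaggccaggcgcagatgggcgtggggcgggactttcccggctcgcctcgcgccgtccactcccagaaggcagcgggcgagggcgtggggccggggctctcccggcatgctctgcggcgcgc
In Cdk1 the TTTGAA matches lie at -71 and -15 from the start, and its CCAAT boxes at -208, -80 and -48, all on the opposite strand. In Mki67 the TTTGAA matches lie further upstream, at -116 and -98. Across pools, the 20 measured members with TTTGAA had a median r with the other mitotic members of 0.49, and the 6 without it 0.67, a description with no test.

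The first comparison asked which mitotic genes differ in signal when Igf1 is lost, and no member passed the test. In limma 0 of 32 members passed an adjusted p of 0.05, as did 0% of all 22626 probe sets, and the smallest adjusted p of a member was 0.980. At an unadjusted p under 0.05 there were 0 of 32 members, against 4.99% of all probe sets (2.58% lower and 2.42% higher in the null pools), with a smallest member p of 0.118. No member separated the genotypes: in 0 of 32 were all null arrays below or all above the wild type arrays, against 10.8% of probe sets (5.3% with the null arrays lower and 5.53% higher). The mean was lower in the null pools for 23 members and higher for 9 (lower in 71.9%, against 49.3% of probe sets), with a median difference of -0.08, against 0.0041 over all probe sets. Without null pool 2 the median was 0.011 with 15 of 32 lower, and without wild type pool 1 it was -0.015 with 17 lower. For the 31 members above background the differences ran from -0.32 to 0.23. The 95% interval lay within a 1.5-fold change in both directions for 23 of those 31 members and within 2-fold for 30, Cenpe being the exception (0.507 to 2.16-fold).

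**Figure D1:**
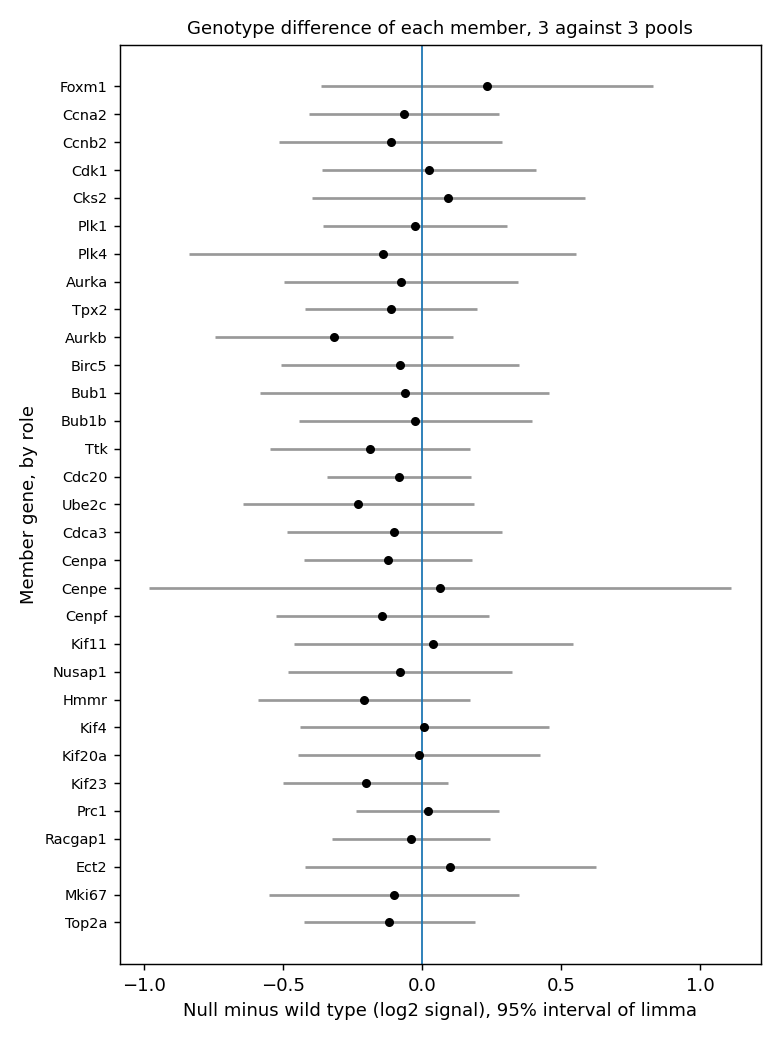
Difference of each of the 31 members above background between 3 Igf1 null and 3 wild type pools, on the log2 scale after quantile normalization; points are limma estimates and bars their 95% intervals. Every interval crosses 0, from Aurkb at -0.32 to Foxm1 at 0.23. On the values as deposited 30 of 32 members had the lower mean in the null pools, and the median difference of all probe sets was -0.15.

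Foxm1 itself had the largest positive difference among members above background. At its brightest probe set the wild type pools 1 to 3 read 5.72, 5.85 and 6.19 and the null pools 1 to 3 read 6.50, 6.18 and 5.78. Null pool 1 was the highest and wild type pool 1 the lowest, while null pools 2 and 3 lay within the wild type range. Wild type averaged 5.92 ± 0.24 (SD, n = 3) and null 6.15 ± 0.36 (SD, n = 3), a difference of 0.23 ± 0.24 (SE) with a limma adjusted p of 0.981 and a 95% interval from -0.36 to 0.83. The next probe sets of Foxm1, with mean levels of 5.62 and 4.07, differed by 0.25 ± 0.18 and 0.19 ± 0.20. The dimmest did separate the groups, with 3.23, 2.63 and 1.95 in the null pools against -0.03, -1.56 and 1.22 in wild type (unadjusted p = 0.0149, limma adjusted p = 0.894), but each of these values lies below the background level of 3.38 and the difference does not show a change in expression. With the mean over its probe sets Foxm1 differed by 0.85 (unadjusted p = 0.0354), a value that includes that dim probe set, with a limma adjusted p of 0.970. At the brightest probe set the difference was 0.06 without null pool 1 and 0.05 on the values as deposited.

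Cyclins and CDK1, which drive entry into mitosis, were near evenly placed. Cdk1 read 8.88, 8.59 and 8.85 in wild type pools 1 to 3 and 9.01, 8.67 and 8.72 in null pools 1 to 3, a difference of 0.025 ± 0.15 (SE). Null pool 1 was the highest and wild type pool 2 the lowest, and of the other 4 pools both wild type pools lay above both null pools. Ccnb2, a B-type cyclin that partners CDK1, read 7.75, 7.75 and 7.80 in wild type and 7.94, 7.57 and 7.45 in null pools. The wild type pools lay within 0.05 of each other and the null pools fell on both sides of them, with SDs of 0.028 and 0.26. Ccna2, the cyclin of S and G2 phase, differed by -0.07 ± 0.14, and Cks2, a small CDK-binding protein gene, by 0.10 ± 0.19. A second Ccna2 probe set had all null arrays below all wild type arrays, at -0.21 ± 0.11 (unadjusted p = 0.119). The other Cks2 probe set, nearly as bright, had the opposite sign, at -0.16 ± 0.33.

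Genes grouped as mitotic kinases were Plk1, Plk4, Aurka and the activator gene Tpx2, with Cdk1 read above. All 4 had the lower mean in the null pools at their brightest probe sets, by small amounts, against 49.3% of all probe sets lower. Plk1, the Polo kinase of mitotic entry and spindle assembly, read 6.79, 6.84 and 6.83 in wild type and 6.74, 6.65 and 7.002 in null pools, a difference of -0.025 ± 0.13 (SE). The null pools held both its lowest and its highest value. Aurka, the spindle pole kinase, differed by -0.08 ± 0.17, its activator gene Tpx2 by -0.11 ± 0.12, and Plk4, the kinase of centriole duplication, by -0.14 ± 0.28. At its other probe sets Plk4 differed by -0.07 ± 0.22 and 0.235 ± 0.345. Aurkb, the kinase of the chromosomal passenger complex, had the smallest p of the members. It read 6.50, 6.44 and 6.84 in wild type and 6.49, 6.20 and 6.15 in null pools, a difference of -0.32 ± 0.17 (unadjusted p = 0.118, limma adjusted p = 0.980). Null pool 1 lay between the wild type pools, so the groups overlapped at that array. Birc5, which encodes survivin of the same complex, differed by -0.08 ± 0.17.

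Genes grouped as spindle checkpoint and anaphase-promoting complex, with Cdca3 counted among them, were 6 of 6 with the lower null mean. This compares with 49.3% of all probe sets, and the median of the 6 was -0.09. Ube2c, the ubiquitin-conjugating enzyme of that complex, read 8.12, 8.16 and 8.23 in wild type and 8.24, 7.77 and 7.80 in null pools, a difference of -0.23 ± 0.17 (SE). Null pools 2 and 3 were below every wild type pool and null pool 1 above every one. Ttk, the checkpoint kinase MPS1, read 5.88, 5.82 and 5.83 in wild type and 5.57, 5.50 and 5.90 in null pools, a difference of -0.19 ± 0.14. Here null pool 3 stood above the wild type pools and the other null pools below. The checkpoint genes Bub1 and Bub1b differed by -0.06 ± 0.21 and -0.02 ± 0.17, the activator gene Cdc20 by -0.08 ± 0.10 and Cdca3 by -0.10 ± 0.15.

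Kinetochore genes gave -0.12 ± 0.12 (SE) for the centromeric histone gene Cenpa, -0.14 ± 0.15 for Cenpf and 0.07 ± 0.41 for the kinetochore motor gene Cenpe. Cenpe was the most variable member above background, with null values of 6.01, 5.04 and 6.63 against 5.75, 5.80 and 5.94 in wild type.

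Spindle and cytokinesis genes were placed on both sides of 0. Hmmr, a microtubule-binding protein gene, read 6.79, 6.48 and 6.54 in wild type and 6.45, 6.20 and 6.52 in null pools, a difference of -0.21 ± 0.15 (SE). Null pools 1 and 2 were below each wild type pool, while null pool 3 was within their range. Kif23, the kinesin of the centralspindlin complex, read 7.73, 7.60 and 7.73 in wild type and 7.39, 7.44 and 7.62 in null pools, a difference of -0.20 ± 0.12 (unadjusted p = 0.141, limma adjusted p = 0.980). Only null pool 3 overlapped wild type, and at its other probe sets Kif23 differed by -0.47 ± 0.27 and 0.81 ± 0.60. Racgap1, the GTPase-activating partner of Kif23, read 6.997, 6.93 and 7.11 in wild type and 7.03, 7.01 and 6.88 in null pools, a difference of -0.04 ± 0.11. Its other probe set separated the groups, at 7.11, 7.28 and 7.11 against 6.9, 6.84 and 6.4 (difference -0.45 ± 0.17, unadjusted p = 0.0450, limma adjusted p = 0.980), so the 2 probe sets of Racgap1 disagree. Ect2, the exchange factor that centralspindlin recruits, read 6.44, 6.05 and 6.28 in wild type and 6.71, 6.11 and 6.26 in null pools, a difference of 0.10 ± 0.21. The spindle motor genes Kif11 and Kif4 differed by 0.04 ± 0.20 and 0.008 ± 0.18, Nusap1 by -0.08 ± 0.16, Prc1 by 0.02 ± 0.10 and Kif20a by -0.01 ± 0.17. At its other probe sets Kif11 differed by -0.29 ± 0.18 and 0.45 ± 0.30.

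Mki67, which encodes the proliferation marker Ki-67, read 9.41, 9.04 and 9.14 in wild type and 9.20, 8.83 and 9.25 in null pools, a difference of -0.10 ± 0.18 (SE). Wild type pool 1 was the highest and null pool 2 the lowest, and of the remaining 4 pools both null pools lay above both wild type pools. Top2a, the topoisomerase that untangles chromosomes for mitosis, differed by -0.12 ± 0.12. Over all members, 14 genes had a further 20 probe sets above background, and in 15 of these 20 the difference had the sign of the brightest probe set.

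The members tended to be high or low in the same pools. Null pool 1 held the highest value of 16 of the 32 members and null pool 2 the lowest value of 20, against 19.4% and 14.1% of all probe sets. The median deviation of the members from their own means was 0.119, -0.067 and 0.041 in wild type pools 1 to 3 and 0.151, -0.194 and -0.039 in null pools 1 to 3, so both extremes were null pools. On the values as deposited the members were lowest in null pool 1 (-0.373), where the median deviation of all probe sets was -0.524. Relative to that median they stood 0.151 higher there and 0.198 lower in null pool 2 (-0.198), the same order of these pools as after normalization. Birc5, whose values were the most like those of the other members, read 7.98, 7.69 and 7.82 in wild type and 7.99, 7.51 and 7.74 in null pools. Over the 31 mitotic members the median Pearson r between pairs of genes across the 6 pools was 0.50, with 49.7% of 465 pairs over 0.5, against a median of 0.00 and 16.9% among all 12393 genes. Among the 14 S phase genes of a list read below, the median was 0.46 with 45.1% of pairs over 0.5. Among 32 other G2 and M genes it was 0.35 with 35.1%, so moving together was not particular to the members. After subtraction of group means the median of the members was 0.53, with the values as deposited it was 0.78, and without null pool 2 it was 0.28. The pairs share 6 arrays and the scaling of each, and genes are not independent replicates, so these correlations are a description.

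**Figure D2:**
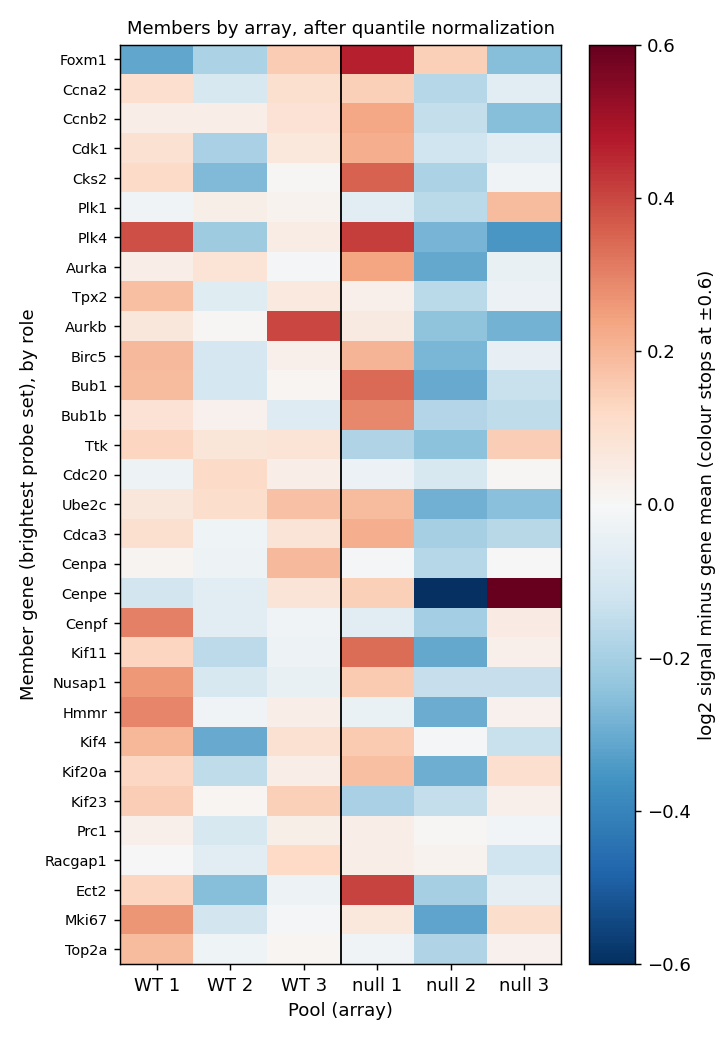
Deviation of each member's log2 signal from its own mean over the 6 arrays, after quantile normalization, for the 31 members above background; columns are wild type (WT) and null pools 1 to 3, red is higher and blue lower, with colours stopping at ±0.6. Null pool 2 is blue for most rows. Most rows are red in null pool 1, WT pool 1 and, with a smaller median deviation, WT pool 3, while Foxm1 is low in WT pool 1. On the values as deposited every member was below its mean in null pool 1, the array with the lowest median.

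The titles carry a number, 14 for pool 1 of each genotype and 16 for the others, whose meaning is not given. Members had the higher mean in the arrays of number 14 in 28 of 32 (87.5%, against 50.2% of probe sets), with a median difference of 0.20. In 13 of 32 both arrays of number 14 were above all 4 arrays of number 16, against 8.65% of probe sets. This grouping was read after the values had been seen. It crosses genotype. In number 14 the null pool minus the wild type pool had a median of 0.022, with 14 of 32 members lower and 18 higher. Of all probe sets 50.7% were lower there, with a median of -0.007. In number 16 the median of the members was -0.084 with 27 of 32 lower, against 0.008 and 48.9% of all probe sets. The median of the members thus had opposite signs within the title numbers, with 1 pool a genotype in number 14. The 3' minus 5' signal of beta-actin, a sign of RNA quality, was 0.76, 0.71 and 0.796 in wild type and 0.885, 0.856 and 1.076 in null pools, so it was higher in every null pool than in any wild type pool. That of Gapdh was 0.191, 0.315 and 0.245 against 0.181, 0.347 and 0.523. The part of RNA quality in the differences of the members was not tested.

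Whether the mitotic genes followed Foxm1 from pool to pool was examined over the 6 pools, and no relation passed the test. Of 31 members 20 had a positive r with Foxm1 (64.5%, against 48.8% of probe sets), with a median r of 0.18 and a range from -0.77 to 0.65. The smallest exact permutation p over the 720 pairings was 0.0790, and adjusted over the 31 relations the smallest was 0.747 for r and 0.921 for rho. Racgap1 had the highest r, 0.65 (rho = 0.77, exact permutation p = 0.168 and 0.103), but its other probe set, also above background, had an r of 0.036. Ccnb2 followed with 0.56 (rho = 0.71, exact p = 0.253 and 0.136), then Cdk1 with 0.51 (rho = 0.26, exact p = 0.276 and 0.658) and Ect2 with 0.48 (rho = 0.26, exact p = 0.356 and 0.658). The lowest were Ttk at -0.77 (rho = -0.66, exact p = 0.079 and 0.175) and Kif23 at -0.67 (rho = -0.66, exact p = 0.147 and 0.175). At its other probe sets, both dimmer, Kif23 had an r of -0.13 and 0.115. Without the pools farthest from the Foxm1 median (null pool 1 and wild type pool 1), 14 of 31 were positive with a median of -0.08, and r was 0.92 for Racgap1, 0.40 for Ccnb2, 0.48 for Cdk1, 0.12 for Ect2, -0.64 for Ttk and -0.09 for Kif23. Without null pool 1 alone 6 of 31 were positive, so the count rests on that array. With the values as deposited 11 were positive. With the other probe sets of Foxm1 in order of brightness 10, 20 and 14 were positive, the last being below background. The title numbers hold 2 and 4 arrays, too few for a correlation within either.

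**Figure D3:**
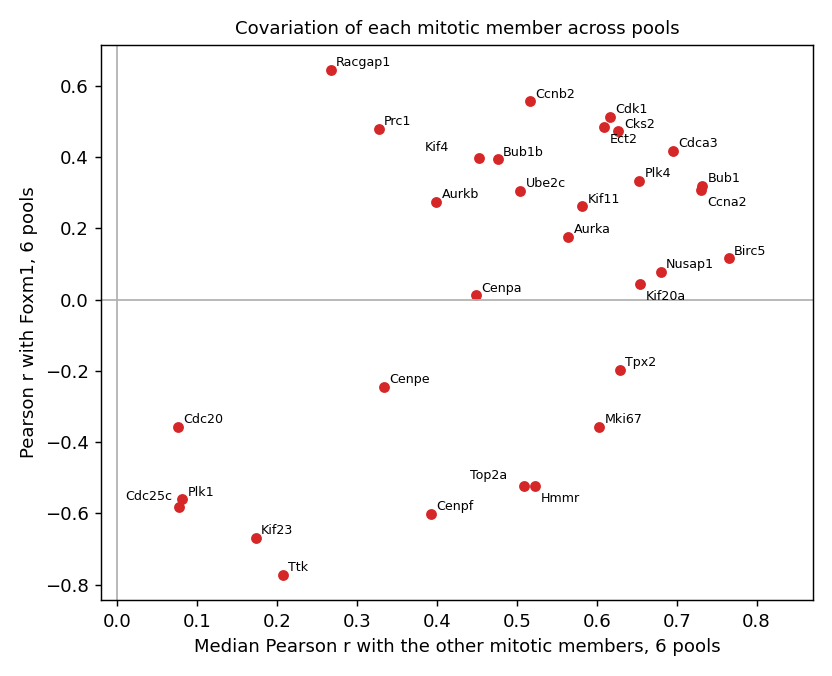
Each point is 1 of the 31 mitotic members; the horizontal axis is its median Pearson r with the other mitotic members and the vertical axis its Pearson r with Foxm1, both over 6 pools after quantile normalization. All points lie to the right of 0 on the horizontal axis (0.076 to 0.765), while on the vertical axis they spread from -0.77 to 0.65; without null pool 1 only 6 of 31 lie above 0 there.

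Foxm1, read at its brightest probe set, and the mitotic genes parted in wild type pool 1 and null pool 2. In wild type pool 1 Foxm1 was 0.327 below the array's median deviation (-0.327) while the members' median was 0.105 above it, and in null pool 2 Foxm1 was 0.14 above and the members 0.196 below (-0.196). Both were high in null pool 1, at 0.46 and 0.146. These relative positions had the same signs on the values as deposited, at -0.299 and 0.093 in wild type pool 1 and 0.148 and -0.198 in null pool 2. The next probe sets of Foxm1, also above background, followed this only in part. The brighter read 5.475 in wild type pool 1, 5.61 in null pool 1 and 5.78 in null pool 2, with a mean of 5.624. The other read 3.735, 4.322 and 4.065, with a mean of 4.071. Each was low in wild type pool 1, but the brighter was not high in null pool 1 nor the other in null pool 2.

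Genes around the pathway were read from lists chosen by name. Of 32 measured other G2 and M genes, 25 were lower and 7 higher in mean, with a median of -0.04. Of all probe sets 49.3% were lower. At an unadjusted p under 0.05 there were 0 of the 32, against 4.99% of all probe sets. The arrays did not overlap in 1 of the 32, against 10.8% of all probe sets. It was the phosphatase gene Cdc25b, chosen after its values were seen (-0.12 ± 0.10 SE). Dlgap5, a spindle protein gene, had the smallest p (-0.39 ± 0.17 SE, limma adjusted p = 0.980). Their array pattern was like that of the members, at 0.157, -0.094 and 0.012 in wild type and 0.084, -0.171 and 0.017 in null pools. Regulators of Foxm1 and its MuvB partners were lower for 4 of 12 measured genes and their median was 0.04. Among these 12 only 1 had an unadjusted p under 0.05, against 4.99% of all probe sets. It was E2f1, an activator of S phase genes (-0.325 ± 0.118 SE, limma unadjusted p = 0.0372, limma adjusted p = 0.974). Lin9, a core MuvB subunit gene, stood at 0.87 ± 0.36 (limma adjusted p = 0.980). Of the S phase genes 12 of 14 stood higher in the null pools, their median was 0.06, and Mcm2, Mcm5, Mcm7, Rrm1 and Tyms (5 of 14) had all null arrays above all wild type arrays, against 5.53% of probe sets in that direction. Mcm7, a subunit of the replicative helicase, read 10.04, 9.94 and 9.88 in wild type and 10.30, 10.13 and 10.21 in null pools (0.26 ± 0.11, limma adjusted p = 0.980), and Tyms, thymidylate synthase, differed by 0.57 ± 0.25. Of 8 genes of withdrawal from the cycle, 6 were lower, and Cdkn1c, which encodes the CDK inhibitor p57, differed by -0.39 ± 0.15 (unadjusted p = 0.0487, limma adjusted p = 0.980). None of these genes passed adjusted over all probe sets. Whether these lists differ from the members was not tested.

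**Figure D4:**
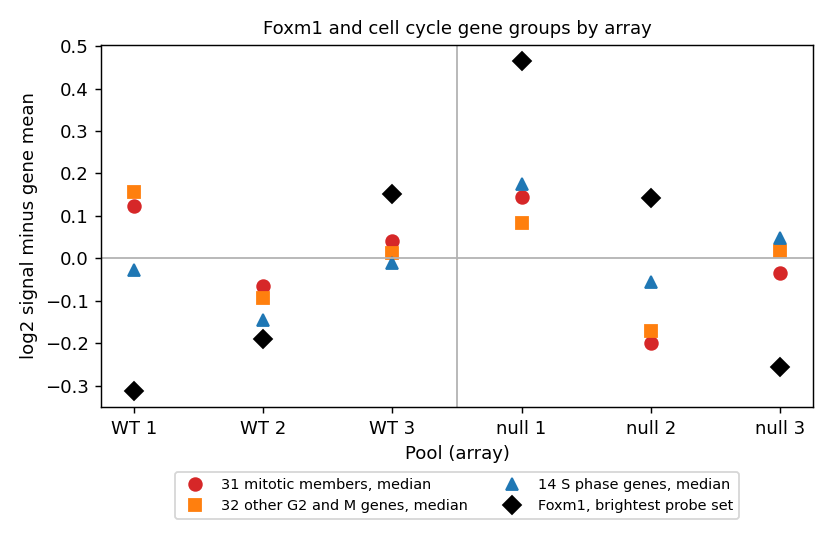
Log2 signal minus the gene's own mean in each pool after quantile normalization: the median over 31 mitotic members, 32 other G2 and M genes and 14 S phase genes, and the single value of Foxm1 at its brightest probe set. The mitotic medians are highest in WT 1 and null 1 and lowest in null 2, where Foxm1 is 0.14 above its array's median deviation. As deposited, all members are below their means in null 1, where the median deviation of all probe sets from their own means is -0.524.

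Markers of the cells in the pools were read beside the members. No marker passed the test, yet several lists lay to one side: in the null pools the mean was lower for 7 of 7 cartilage, 4 of 4 bone and 5 of 5 endothelial markers and higher for 11 of 12 of cochlear epithelium. Of all probe sets 49.3% were lower. The summed linear signals of these lists still overlapped between genotypes. They were 8909 to 11371 in wild type and 7808 to 10778 in null pools for bone, 673 to 774 and 578 to 691 for endothelium, and 3382 to 4755 and 3989 to 4852 for cochlear epithelium. Skeletal muscle (5 of 5 measured), neuron (4 of 4) and Schwann cell markers (2 of 4) also overlapped, at 4646 to 15676 and 4788 to 15421, 1479 to 4800 and 1586 to 3116, and 1841 to 2197 and 2091 to 2263. Macrophage markers (5 of 5 measured, all above background) had a median deviation of 0.136, 0.058 and 0.069 in wild type and 0.109, -0.198 and -0.127 in null pools, lowest in null pool 2 as were the members. Their summed linear signal ran from 1358 to 1409 in wild type and from 1152 to 1441 in null pools. Erythroid markers (5 of 7 measured) had a summed signal of 303, 344 and 251 in wild type and 216, 167 and 139 in null pools, lowest in null pool 3. This sum was lower in every null pool than in any wild type pool. Over the 3 above background the median deviation was 0.487, 0.609 and 0.177 in wild type and -0.037, -0.705 and -0.774 in null pools. Slc4a1, the red cell anion exchanger gene, differed by -1.76 ± 0.18 (limma adjusted p = 0.455), while Hba-a1 and Epb42 were not above background. Cartilage markers were lowest in null pool 1, where the members were high, at -0.507, with summed signals of 24310 to 30488 in wild type and 19597 to 26897 in null pools. The part of these cells in the pattern of the members was not tested.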

How the data were processed

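RNA from cochleae of 3 wild type and 3 Igf1 null pools was hybridised as biotinylated cRNA to Affymetrix arrays, per the labels' protocols. The table the authors deposited holds 22690 probe sets as log2 values, a base taken from their range. How they were summarised and scaled is not given in the sources used. The design assumed quantile normalization, since array medians were known to differ. After removal of 64 controls, 22626 were tested without a filter. Of these, 20380 were annotated to 1 gene, 691 to several and 1555 to none; by Entrez identifier 29 of the single-gene probe sets had no match in RefSeq (GRCm38.p6), and 0 symbols changed. Probe annotation and RefSeq coordinates may differ in build, so no probe is placed on the genome.

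The test of genotype was limma's moderated one (version 3.58.1, R 4.3.3, two-sided, Benjamini-Hochberg over all probe sets, threshold 0.05), tested on simulated data. The labels call the pools biological replicates, and the number of arrays limits the precision. The members and lists were chosen with earlier results of these data known, and no test over a list was made. Cell type markers and other cell cycle genes were lists fixed by name, with up to 3 genes of a cell cycle list named by smallest p. Named with every array were Foxm1, the 4 members of smallest p, the 4 of highest and 2 of lowest r with Foxm1, and Cdk1, Plk1, Aurkb and Mki67; Birc5, Cenpe, Slc4a1 and single other probe sets were chosen after their values were seen. Correlations with Foxm1 used exact permutation over 720 pairings. Alternatives were the deposited values, median centring, a replicate or title number block, a trended and robust variance, array weights (statmod 1.5.0), 1 probe set a gene, the mean over probe sets, a filter at the 40th percentile, a pseudocount of 32, other Foxm1 probe sets, and leaving out each array.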

Additional observations from a re-analysis of the deposited data

How the results depend on the processing

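No member passed the threshold under any of the alternatives run. The median difference of the members kept its sign under every alternative except without null pool 2; its leave-one-out range was -0.148 to 0.011. The number of members with the lower null mean ran from 15 (without null pool 2) to 28 with single arrays left out. The number whose arrays did not overlap was 0 of 32 as reported (10.8% of probe sets), 5 with the values as deposited (15.6%, against 6.37% of probe sets) and 2 when a gene's probe sets were averaged (6.25%, against 10.6% of genes). It was 0 to 9 when each array was left out in turn, where 2 against 3 arrays separate more easily and 17.8% to 22% of all probe sets did not overlap. The 9 came without null pool 1 (28.1%, against 21.1%). The number of members with a positive r with Foxm1 was 20 as reported, 11 with the values as deposited, 10, 20 and 14 with the other Foxm1 probe sets, and 6 to 21 with single arrays left out.

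Of 192 values of named genes under alternatives, 13 changed sign. With the values as deposited Cdk1 was -0.100 and Ect2 -0.0639, and with array weights Cdk1 was -0.0481. With its probe sets averaged Kif23 was 0.0469, a value that includes its probe set close to background. With single arrays left out differences ran for Cdk1 from -0.077 to 0.091, Ect2 from -0.074 to 0.228, Racgap1 from -0.081 to 0.010, Plk1 from -0.126 to 0.050 and Mki67 from -0.179 to 0.033. The cause was not tested.

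With the replicate number as a block 0 members passed and the median difference was -0.08. The main test did not take the numbers to pair the pools. Same-numbered pools had correlations of deviations of 0.040, 0.101 and 0.021 over probe sets, and 5 of 6 arrays correlated best with their own number. Whether the numbers pair the pools was not tested. The title number block likewise gave 0 members. Signal over background limits Cdc25c and the dimmest Foxm1 probe set, and 3 against 3 arrays leave 8 members above background with intervals beyond 1.5-fold.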
